A study of Mus musculus with 4 samples.

Results

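T-box genes encode transcription factors that share a DNA-binding domain, the T-box, and 10 of them were read here in the developing mouse inner ear after Tbx2 and Tbx3 had been targeted together. The members were Tbx1, Tbx2, Tbx3, Tbx4, Tbx5, Tbx6, Tbx15, Tbx18, Tbx20 and Mga, taken by their names in the array annotation. They make up 10 of 31791 gene names and 13 of 39429 probes. Tbx2 and Tbx3 were read apart from the other 8 genes.

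T-box proteins bind short DNA elements built around a core known from the T gene and act as activators or repressors. Tbx2 and Tbx3 are close relatives that mainly repress, and together with Tbx4 and Tbx5 they form a subfamily whose genes lie in the pairs Tbx2-Tbx4 and Tbx3-Tbx5. Tbx1, Tbx15, Tbx18 and Tbx20 belong to another subfamily, and of these Tbx1 is the member known for inner ear development, with roles both in the otic epithelium and in the mesenchyme around it.

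The tissue was the otocyst, the epithelial vesicle that forms the inner ear, dissected mechanically from NMRI embryos at E10.5. Tbx2/3cDKO embryos, the mutants, carried Pax2-cre together with Tbx2(fl/fl) and Tbx3(fl/fl), so that cre recombinase, driven by Pax2 regulatory sequence, could recombine both floxed genes in the cells where it was active. Control embryos carried Tbx2(fl/?) and Tbx3(fl/?) with no cre in their labels, so both genotypes had floxed alleles and the number of floxed copies in the controls is open. Pax2-cre is known to act in the otic placode and also in other tissues, and no label says which cells of the dissected tissue it reached. Each of 4 arrays received 1 Tbx2/3cDKO and 1 control RNA, with female RNAs on the first 2 arrays, male RNAs on the other 2 and the dyes swapped within each sex. No label says whether the replicates came from separate embryos or pools, so a p-value here covers variation among these samples alone and may be technical in part or in full. In tissue RNA of this kind, fewer cells of a type and less RNA per cell cannot be told apart.

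The share of spots flagged as well above background ran from 58.4% to 63.2% per channel, 0 spots were saturated, and precision is limited by the number of arrays. The log2 ratios of Tbx2/3cDKO over control correlated between arrays across probes with r from 0.643, for replicates 1 and 4, to 0.849, for replicates 1 and 2, and probes are not independent replicates. Ratios were normalized within each array and tested with limma over the 23186 probes that were bright enough (well above background in 3 or 4 RNAs of either genotype), and a probe is called where the Benjamini-Hochberg adjusted p was under 0.05. Levels are log2 channel intensities after normalization and are compared within a probe only, apart from sums over marker lists, in which bright probes weigh most.

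The sequences below are the stretches of the array probes that read the members on which the results turn, given as 30 of the 60 probe bases, 5′ to 3′. They are shown because each gene except Tbx6 and Tbx20 was read by 1 probe, so that the reading of the gene is the reading of that sequence. Capitals mark AATAAA, the canonical polyadenylation signal, on the strand of the probe.
Tbx3: ctttatggtgttttggattggtgtactgag
Tbx2: aagcgagaaaatAATAAAaacgctatcatg
Tbx1: tgtgtagatactgtagatactgcaccggcg
Tbx18: tctgaggtatctatagcAATAAAggcttag
Tbx15: aagtgaaactgggtgcaagctaaaattttt
Tbx6, probe at 133929000: agtatttttgttAATAAAactccaaagaca
Mga: caggtcatcagcacttaacctttcctgttt

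AATAAA stood in 3 of the 13 member probes, those of Tbx2 and Tbx18 and 1 of the 2 Tbx6 probes, against 12.6% of all 39429 probes on the same strand and 16.2% on either strand. No member probe shared a run of 20 bases with any other probe of the array. The longest run shared within the 78 pairs of member probes was between 4 and 8 bases. Positions are those of the files, on mm9, and which exon or untranslated region a probe falls in was not analysed here.

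Of the 13 member probes, 8 probes for 7 genes were bright enough to be tested: Tbx1, Tbx2, Tbx3, Tbx15, Tbx18, Mga and both probes of Tbx6. Tbx3 and Tbx1 were lower and Tbx18 was higher in Tbx2/3cDKO otocysts, and 5 of the 8 probes were not called (limma, adjusted over all probes tested). Over all 23186 probes tested, 22.1% were called in either direction, 12.4% higher and 9.7% lower. Leaving out Tbx2 and Tbx3, 1 of 6 tested probes was called higher and 1 lower. The median log2 ratio over all probes tested was -0.00055.

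**Figure D1:**
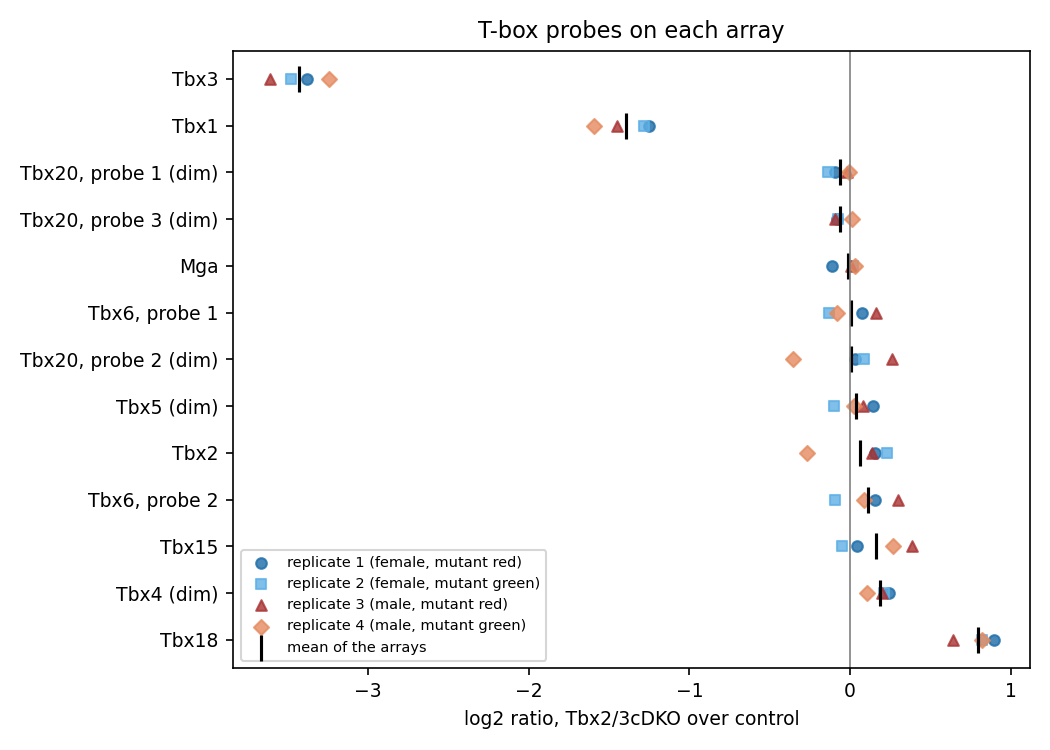
The log2 ratio of Tbx2/3cDKO over control for each of the 13 T-box probes, with 1 point for each of the 4 arrays and a bar at their mean; "dim" marks probes that were not tested. All 4 points of Tbx3 (-3.61 to -3.25) and Tbx1 (-1.59 to -1.25) lie left of 0 and all 4 of Tbx18 (0.64 to 0.89) lie right of it, whereas the arrays differ in sign at Tbx2.

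Of the targeted pair, Tbx3 was lower on each of the 4 arrays. Its probe lies on chromosome 5, 120134511 to 120134570 on the plus strand. Its level was 9.55, 9.34, 9.18 and 9.74 in Tbx2/3cDKO replicates 1 to 4, against 12.93, 12.82, 12.79 and 12.98 in control replicates 1 to 4. Every Tbx2/3cDKO value lay below every control value, with a gap wider than the spread within either genotype. Levels lay apart in this way, with the Tbx2/3cDKO samples lower, at 10.1% of all probes tested. The log2 ratio was -3.43 ± 0.16 (SD, n = 4; limma SE 0.067, 95% interval -3.59 to -3.27, adjusted p = 3.26e-06), which is a 10.8-fold lower level and the lowest ratio of all 23186 probes tested. The Tbx3 probe was nonetheless well above background in all 4 Tbx2/3cDKO RNAs, where its raw signal was at least 8.23 times the local background.

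Tbx2, the other targeted gene, was not called. Its probe lies on chromosome 11, 85655391 to 85655450 on the plus strand. Its level was 13.47, 13.32, 13.19 and 12.94 in Tbx2/3cDKO replicates 1 to 4, against 13.31, 13.09, 13.06 and 13.21 in control replicates 1 to 4. The 2 sets of values overlapped, and replicate 4 was the only array on which Tbx2/3cDKO was the lower sample. The log2 ratio was 0.06 ± 0.23 (SD, n = 4; limma adjusted p = 0.656), with a 95% interval of -0.14 to 0.26. The sources used here do not say which part of Tbx2 the floxed allele removes, so this probe is no check of the deletion.

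Tbx1, a regulator of otic patterning whose loss in mice is known to widen the neurogenic part of the otocyst, was lower on each of the 4 arrays. Its probe lies on chromosome 16, 18581807 to 18581866 on the minus strand. Its level was 13.34, 13.18, 13.06 and 13.06 in Tbx2/3cDKO replicates 1 to 4, against 14.59, 14.46, 14.51 and 14.65 in control replicates 1 to 4. The genotypes did not overlap. The log2 ratio was -1.39 ± 0.16 (SD, n = 4; limma SE 0.07, 95% interval -1.56 to -1.22, adjusted p = 4.09e-05), a 2.63-fold lower level. It ranked 50th from the lowest among the 2248 probes called lower. The Tbx1 signal was 99.2 to 655 times the local background, so its reading was far from the limit of detection in every RNA.

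Tbx18, known from mesenchyme around the otic vesicle, in the ureter and at the venous pole of the heart, was higher on each of the 4 arrays. Its probe lies on chromosome 9, 87599514 to 87599573 on the minus strand. Its level was 9.0, 8.79, 8.77 and 8.92 in Tbx2/3cDKO replicates 1 to 4, against 8.10, 7.97, 8.12 and 8.10 in control replicates 1 to 4. All Tbx2/3cDKO values lay above all control values, as was so for 12.4% of all probes tested. The log2 ratio was 0.79 ± 0.11 (SD, n = 4; limma SE 0.06, 95% interval 0.65 to 0.94, adjusted p = 0.0002), a 1.73-fold higher level. It ranked 392nd from the highest among the 2872 probes called higher, and its raw signal was between 3.26 and 14.9 times background.

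**Figure D2:**
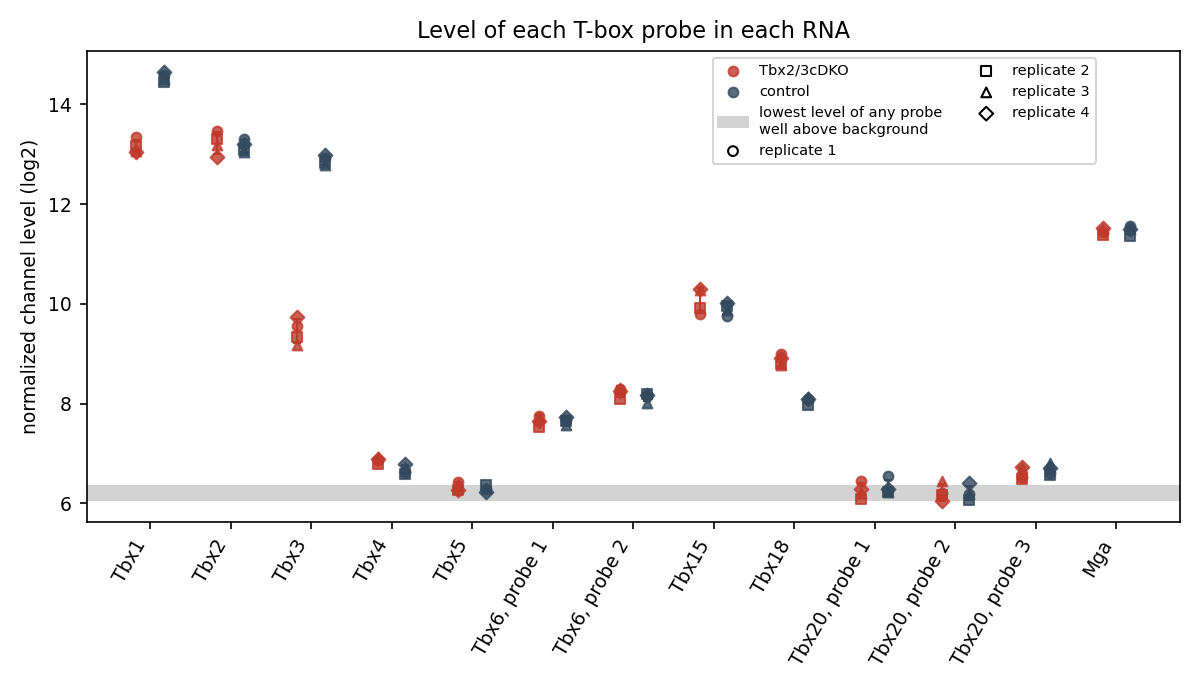
The normalized log2 channel level of each T-box probe in each RNA, Tbx2/3cDKO (red) left of control (dark), with 1 symbol per replicate and a line of 1 SD around the mean; the grey band spans the lowest levels of any probe well above background. The genotypes lie apart at Tbx1, Tbx3 and Tbx18 and overlap at Tbx2, Tbx6, Tbx15 and Mga. Levels of Tbx4, Tbx5 and Tbx20 lie at or close to the band, and the genotypes at Tbx4 lie apart by a narrow margin.

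The other tested members were not called. Tbx15, a relative of Tbx18 known from craniofacial and limb mesenchyme, had levels of 9.80, 9.91, 10.27 and 10.29 in Tbx2/3cDKO replicates 1 to 4, against 9.75, 9.96, 9.89 and 10.03 in control replicates 1 to 4. Both male Tbx2/3cDKO samples were above every control, and both female ones lay within the control range. The log2 ratio at chromosome 3, 99157901 to 99157960 on the plus strand, was 0.16 ± 0.20 (SD, n = 4; limma 95% interval -0.03 to 0.35, adjusted p = 0.211). With a sex term in the fit the same ratio passed the threshold (limma adjusted p = 0.0297), in a fit that called 4041 of 23177 probes higher, against 2872 of 23186 without that term.

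Tbx6, a factor of the presomitic mesoderm, was read by 2 probes on chromosome 7, both on the plus strand. At 133928828 to 133928887 its log2 ratios were 0.07, -0.13, 0.16 and -0.08 on replicates 1 to 4, with a mean of 0.01 ± 0.13 (SD, n = 4; limma adjusted p = 0.955). At 133929000 to 133929059 they were 0.15, -0.10, 0.30 and 0.09, with a mean of 0.11 ± 0.16 (SD, n = 4; limma adjusted p = 0.244). Neither probe kept 1 sign on all arrays, and the limma 95% intervals were -0.12 to 0.13 and -0.03 to 0.25. The lower probe had 2.74 to 5.90 times and the upper probe 3.61 to 7.81 times its local background, so both read a weak signal.

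Mga carries both a T-box and a basic helix-loop-helix zipper domain and pairs with Max in a Polycomb-type repressor complex. Its log2 ratios at chromosome 2, 119792479 to 119792538 on the plus strand, were -0.11, 0.02, 0.01 and 0.03 on replicates 1 to 4. They averaged -0.01 ± 0.07 (SD, n = 4; limma adjusted p = 0.893). The limma 95% interval of -0.14 to 0.11 is the narrowest but for the first Tbx6 probe among the tested members, and its signal was 34.2 to 93.8 times background.

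Tbx4, Tbx5 and Tbx20 were too dim to be tested. Tbx4, a hindlimb and lung factor and the neighbour of Tbx2, was well above background in 2 of 4 Tbx2/3cDKO RNAs and in 0 of 4 control RNAs at chromosome 11, 85729510 to 85729569 on the plus strand. Its log2 ratios were 0.24, 0.21, 0.20 and 0.10 on replicates 1 to 4, all of 1 sign. All its Tbx2/3cDKO levels lay above its control levels, narrowly, with 6.794 in Tbx2/3cDKO replicate 2 and 6.786 in control replicate 4. Levels lay apart in this direction at 12.4% of all probes tested. The estimated level of Tbx4 was 1.14-fold higher, and in a fit without the filter on dim probes its adjusted p was 0.0558 (limma). Tbx5, a forelimb and heart factor and the neighbour of Tbx3, was not well above background in any of 8 RNAs at chromosome 5, 120334087 to 120334146 on the plus strand. The 3 probes of Tbx20, a factor of heart and cranial motor neurons, begin at 24527750, 24544715 and 24563177 on chromosome 9 and were likewise not well above background in any of 8 RNAs. Their raw signals were between 0.945 and 2.42 times the local background, and in the fit without the filter their log2 ratios ran from -0.06 to 0.01.

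The difference between sexes was tested as an interaction term, with 2 arrays of each sex. Of 23186 probes, 4 were called for it, none of them a member (limma), while 3846 probes and 2 member probes had an unadjusted p under 0.05. These were Tbx15, with a male minus female difference of 0.33 in the log2 ratio (limma adjusted p = 0.165), and Tbx1, with -0.26 (limma adjusted p = 0.244). No dye effect was called at a tested member (limma adjusted p of at least 0.836).

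Probes near the 2 T-box gene pairs were read next, beside the 12.4% called higher and 9.7% called lower of all probes tested. Within 500000 bases of the Tbx3 and Tbx5 probes, which lie 199517 bases apart, 4 of 7 other probes were tested and 1 was called, lower in Tbx2/3cDKO. That probe reads AW549542, a transcript with a provisional name on the minus strand, at 120020143 to 120020202. Its level was 6.72, 6.71, 6.49 and 7.0 in Tbx2/3cDKO replicates 1 to 4, against 9.55, 9.78, 9.85 and 10.05 in control replicates 1 to 4. The genotypes were far apart, and the probe was well above background in 1 of 4 Tbx2/3cDKO RNAs and in 4 of 4 control RNAs. Its log2 ratio was -3.07 ± 0.21 (SD, n = 4; limma adjusted p = 6.59e-06). It passed the brightness filter through the controls alone, and 3 of the 4 Tbx2/3cDKO levels behind the ratio were not well above background. Both probes of Rbm19, beyond Tbx5, had log2 ratios of -0.01 and -0.08 and were not called. Tbx3os1, between AW549542 and Tbx3 on the minus strand, was not well above background in any RNA.

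Within the same distance of the Tbx2 and Tbx4 probes, which lie 74060 bases apart, 11 of 15 other probes were tested and none was called lower. Brip1, a DNA helicase of crosslink repair, had a log2 ratio of 0.29 ± 0.08 (SD, n = 4; limma adjusted p = 0.0108). The clone-named 2610027K06Rik had 0.30 ± 0.12 (SD, n = 4; limma adjusted p = 0.0108). These were the 2 probes called higher of 11, beside 12.4% of all probes tested, and 0 were called without replicate 1.

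**Figure D3:**
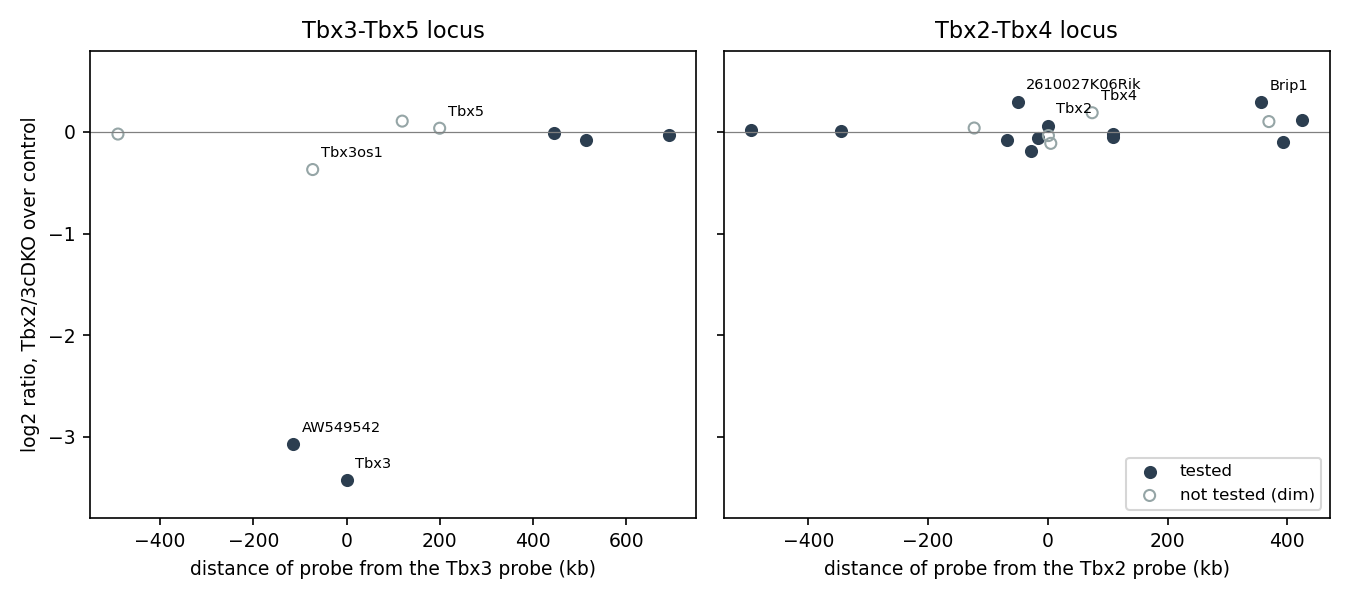
The log2 ratio of Tbx2/3cDKO over control of probes around Tbx3 and Tbx5 (left panel) and around Tbx2 and Tbx4 (right panel), by distance in kb from the Tbx3 or the Tbx2 probe; filled points were tested and open points were too dim. Tbx3 (-3.43) and AW549542 (-3.07) lie far below the others, and the tested neighbours of Tbx2 lie between -0.19 and 0.30.

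Of the remaining T-box genes, 7 were listed and 3 could be tested. T, the founder of the family and a factor of the primitive streak and notochord, was well above background in 3 of 4 Tbx2/3cDKO RNAs and in 0 of 4 control RNAs. It passed the brightness filter through the Tbx2/3cDKO RNAs alone, so that a higher level there was a condition of its being tested. T had an estimated 1.42-fold higher level (limma adjusted p = 0.00115). Tbx10 had -0.06 ± 0.10 (limma adjusted p = 0.509) and the brighter probe of Tbx22 -0.02 ± 0.12 (limma adjusted p = 0.849; SD, n = 4 each). Eomes, Tbr1, Tbx19 and Tbx21 were not bright enough to be tested.

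Genes that work with or downstream of the family were read by lists, 1 probe per gene, beside 18416 genes of which 23% were called, 13.1% higher and 9.81% lower, with a median log2 ratio of 0.0035. The 13 listed partners of Mga, which include Max and the subunits of its Polycomb-type complex, had a median of 0.02. Of these, 2 were called higher and 0 lower, the ubiquitin ligase subunit Rnf2 with 0.31 ± 0.18 (limma adjusted p = 0.0261) and its partner Rybp with 0.28 ± 0.18 (limma adjusted p = 0.0399; SD, n = 4 each). Neither was called without replicate 3 or without replicate 4, nor with the scanner software's signals in place of the background correction used here.

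Of 9 tested genes known as targets of Tbx2 or Tbx3 repression outside the ear, 2 were called higher and 4 lower, and their median log2 ratio was 0.07. The members called higher were Gja5, a connexin of the cardiac conduction system, with 2.08 ± 0.18 (limma adjusted p = 1.27e-05), and the stress-response gene Ndrg1 with 0.58 ± 0.14 (limma adjusted p = 0.000742; SD, n = 4 each). Smpx, a muscle protein gene, went the other way with -1.99 ± 0.20 (SD, n = 4; limma adjusted p = 6.67e-06), and its probe was well above background in 1 of 4 Tbx2/3cDKO RNAs and in 4 of 4 control RNAs, so that it passed the brightness filter through the controls alone. The other genes called lower were Cdkn1a, Cdh1 and Gja1, with -0.27, -0.32 and -0.29. Cdh1 also stands in the list of otic epithelium markers read below. The cell cycle inhibitor Cdkn2a and the natriuretic peptide genes Nppa and Nppb were not well above background in any RNA.

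Genes known from Tbx1 mutants in the ear and its mesenchyme had a median of 0.08, with 4 of 13 called higher and 5 lower. Otx1, a factor of the lateral canal and ventral otocyst that depends on Tbx1 in mice, had -1.71 ± 0.06 (limma adjusted p = 7.03e-06), and Cyp26c1, a retinoic acid-degrading enzyme, had -1.15 ± 0.19 (limma adjusted p = 8.63e-05; SD, n = 4 each). Fgf8, a growth factor, was called higher with 1.98 ± 0.12 (SD, n = 4; limma adjusted p = 9.76e-06), and its other 2 probes were also called higher. Of those 2 probes, 1 was well above background in 3 of 4 Tbx2/3cDKO RNAs and in 0 of 4 control RNAs. That probe passed the brightness filter through the Tbx2/3cDKO RNAs alone, so that a higher level there was a condition of its being tested. Without replicate 1 the count called lower was 3.

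Markers of the cells that a dissected otocyst can hold were read beside the members, with levels summed over a list's tested genes and given as log2. Of 15 otic epithelium markers, 9 were lower, with a median log2 ratio of -0.35. All 15 were bright enough to be tested, and their summed level was 16.73 to 16.94 in Tbx2/3cDKO and 17.70 to 17.86 in controls. Oc90, with mean levels of 14.99 in Tbx2/3cDKO and 16.82 in controls, weighs heavily in this sum, whose difference is larger than the median of the list. Hmx2, a homeobox factor, had -1.94 ± 0.13 (limma adjusted p = 5.43e-06), the otolith protein gene Oc90 -1.83 ± 0.24 (limma adjusted p = 2.07e-05) and the homeobox gene Gbx2 -1.50 ± 0.10 (limma adjusted p = 1.72e-05; SD, n = 4 each). The tested probe of the endogenous Pax2 gene had -0.09 ± 0.17 (SD, n = 4; limma adjusted p = 0.435). It read a weak signal, with mean levels of 7.07 in Tbx2/3cDKO and 7.17 in controls. It was well above background in 3 of 4 Tbx2/3cDKO and 4 of 4 control RNAs, and the other Pax2 probes were too dim to be tested. These markers stand beside the lower Tbx1 and Tbx3 levels, and their part in those results was not tested.

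Of 15 periotic mesenchyme markers, 14 were tested, 10 were higher and 0 were lower, with a median of 0.35, and without replicate 2 the count called lower was 1. Their summed level was 17.23 to 17.31 in Tbx2/3cDKO and 16.78 to 16.95 in controls. Osr1 had 1.24 ± 0.17 (limma adjusted p = 2.26e-05), Foxc2 1.18 ± 0.17 (limma adjusted p = 9.02e-05) and Foxc1 0.93 ± 0.09 (limma adjusted p = 8.84e-05; SD, n = 4 each), all transcription factor genes of mesenchyme, while Osr2 was too dim to be tested. The median of the list was 0.41, 0.41, 0.42 and 0.38 on replicates 1 to 4, and the log2 ratio of Tbx18 on the same arrays was 0.89, 0.82, 0.64 and 0.82. The part of the mesenchyme in the Tbx18 result was not tested.

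Endothelial markers were higher at 10 of 10 genes, with a median of 0.66 and a summed level of 14.59 to 14.72 in Tbx2/3cDKO and 14.06 to 14.21 in controls. The 9 tested erythroid markers were all higher, with a median of 1.13 and 20.01 to 20.13 in Tbx2/3cDKO against 18.43 to 19.09 in controls. Of 8 macrophage markers, 5 were higher and 0 lower, with a median of 0.33. Of 11 tested otic neuroblast markers, 9 were higher and 0 lower, with a median of 0.91. The neurofilament genes Nefm and Ina had 1.65 ± 0.07 (limma adjusted p = 1.02e-05) and 1.27 ± 0.12 (limma adjusted p = 3.7e-05), and Pou4f1, a factor of sensory neurons, had 1.53 ± 0.08 (limma adjusted p = 1.22e-05; SD, n = 4 each). These lists moved the way Tbx18 did and opposite to Tbx1 and Tbx3, and their part in any member's result was not tested.

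**Figure D4:**
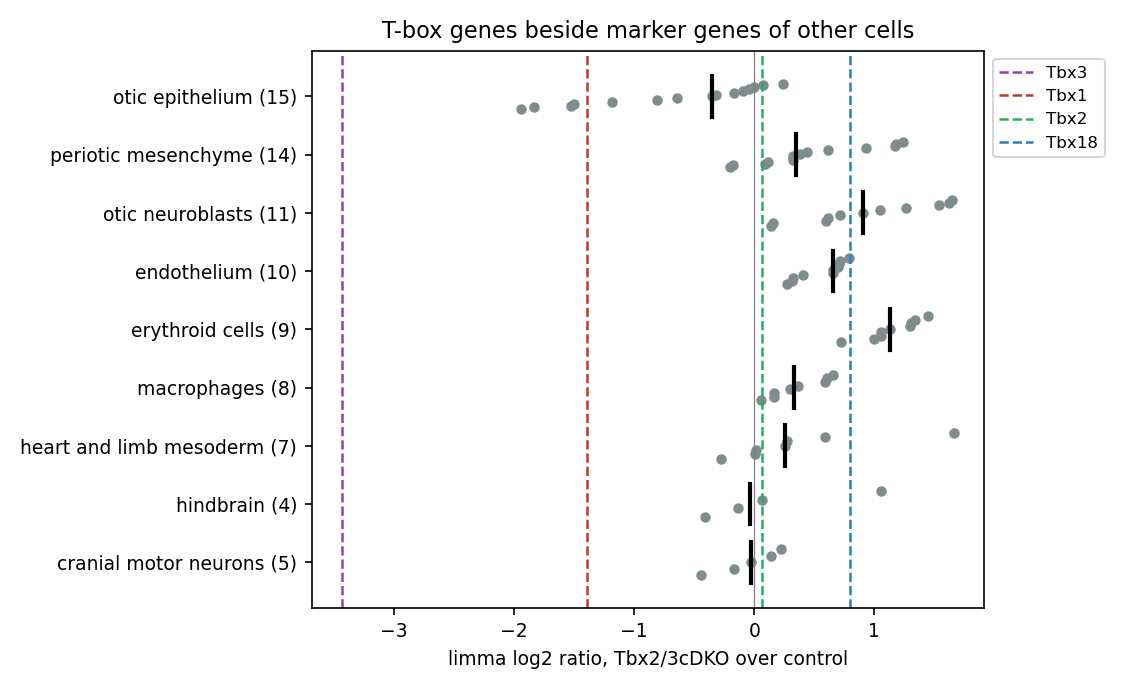
The limma log2 ratio of Tbx2/3cDKO over control of the tested genes in each list of cell markers (grey points, number of genes in brackets, black bar at the median), with dashed lines at Tbx3 (-3.43), Tbx1 (-1.39), Tbx2 (0.06) and Tbx18 (0.79). The Tbx1 line lies within the range of the otic epithelium markers, the Tbx3 line lies below all plotted genes, and the Tbx18 line lies within the range of the periotic mesenchyme markers.

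Markers of the tissues in which the dim members are known were read last. In the heart and limb mesoderm list, home of Tbx5, Tbx20 and Tbx4, Nkx2-5, Gata4, Hand1, Hand2 and Pitx1 were not well above background in any RNA. Of the 7 tested, 4 were higher and 1 lower, with a median of 0.26. Actc1, a sarcomeric actin, had 1.66 ± 0.11 (limma adjusted p = 9.76e-06) and Gata6 had 0.59 ± 0.18 (limma adjusted p = 0.000324; SD, n = 4 each). The troponin gene Tnnt2, well above background in 0 of 4 Tbx2/3cDKO RNAs and in 4 of 4 control RNAs, had an estimated 1.21-fold lower level (limma adjusted p = 0.00981). It passed the brightness filter through the controls alone, and it was not called without replicate 3. Without replicate 1 or without replicate 3, 2 genes were called higher.

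Cranial motor neuron genes had 1 called higher and 1 lower of 5 tested, Slc5a7 with 0.23 ± 0.11 (limma adjusted p = 0.0287) and Nkx6-1 with -0.45 ± 0.26 (limma adjusted p = 0.0167; SD, n = 4 each), and Chat, Slc18a3 and Mnx1 were among those not tested. The call of Slc5a7 was lost without replicate 1, 2 or 3, and that of Nkx6-1 without replicate 3. Presomitic genes, which mark the tissue of Tbx6, had 1 of 5 tested called higher, the Notch ligand gene Dll3 with 1.78 ± 0.19 (SD, n = 4; limma adjusted p = 2.26e-05), and Msgn1, Mesp1 and Wnt3a were not tested. Without replicate 4, 2 presomitic genes were called higher. Of 4 tested hindbrain genes, Pax3 was higher with 1.05 ± 0.21 (limma adjusted p = 9.81e-05) and Hoxb2 lower with -0.41 ± 0.24 (limma adjusted p = 0.00335; SD, n = 4 each). Of 8 pharyngeal endoderm genes only Pax9 was tested, and it was called lower without replicate 4 but not with all arrays.

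The named genes whose 4 log2 ratios lay nearest to those of each called member were found by Euclidean distance over the 4 arrays, leaving out clone and provisional names such as AW549542. Nearest to Tbx1 were Gata2, a zinc finger factor, at a distance of 0.304, Prim2, a DNA primase subunit, at 0.305, and Gbx2 at 0.324. Nearest to Tbx3 were Gdf6, a Bmp family ligand, at 0.727, Aldh1a2, which makes retinoic acid, at 0.862, and the claudin gene Cldn22 at 1.89. Nearest to Tbx18 were Clec14a and Mmrn2, both known from endothelium, at 0.136 and 0.140, and Gdap1l1 at 0.142. The distances say only that the ratios were alike on these arrays.

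The promoters of the family were searched for the T-box core element, since Tbx2 and Tbx3 bind such elements, in the stretch of 300 bases around each gene's start given by RefSeq for GRCm38.p6. The table holds 7 such promoters for 6 of the 10 members, namely 2 for Tbx1 and 1 each for Tbx4, Tbx6, Tbx18, Tbx20 and Mga. The element AGGTGTGA stood in 0 of them on either strand, against 1.28% of all 32851 promoters. Its shorter core AGGTGT, which lies within it, stood in 1 of them, a Tbx1 promoter, against 13.7% of all promoters. The match lies 70 bases before the start in the window chr16:18590730-18590759 (GRCm38.p6, minus strand). It is shown in capitals, since it is the only such match in the 7 promoters searched, which include none of Tbx2, Tbx3, Tbx5 or Tbx15.
Tbx1 promoter: ctcaggactaagAGGTGTaagctcaggacc
A match is a description of these letters and not a binding site.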

How the data were processed

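Total RNA of dissected otocysts was amplified, labelled with AlexaFluor555 or AlexaFluor647 and hybridised to 4 two-colour Agilent arrays, 1 Tbx2/3cDKO and 1 control RNA each, per the labels' protocols. The 4 arrays shared 1 slide and 1 scan according to the headers, which leaves no slide batch to test. AlexaFluor647 (red) marked the Tbx2/3cDKO RNA of replicates 1 and 3. The deposited spot and local background intensities come from Agilent Feature Extraction (version 10.7.3.1 in the submitters' processing notes). The deposited log10 ratios of red over green and the flags were, per the file headers, computed by that software. A value table of the series, which the authors deposited, holds scores, signed fold ratios of Tbx2/3cDKO over control, used as an alternative. Log2 ratios here were turned to Tbx2/3cDKO over control by the dye labels.

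Mean signals were corrected with normexp (offset 50) and normalized within arrays by loess, with control and non-uniform spots (21 to 32 per array) weighted 0; limma was version 3.58.1 and R version 4.3.3. Spots of a probe were averaged. The fit (lmFit, eBayes, prior degrees of freedom 4.84, residual 2) had terms for genotype (signed by dye orientation) and dye, and SDs are of the 4 ratios, dye effect included. Probe levels came from Aquantile normalization after loess. For a probe not well above background in any RNA of a genotype, the fold given is an estimate from these levels and not a lower limit. Coordinates are those of the files (mm9). Gene names came from a RefSeq table of GRCm38.p6, which named 26412 probes by accession, 3854 by symbol and 735 by synonym, and the other 8428 carry the array's own name. Sequences of probes came from the deposited files and promoters from RefSeq. The steps were tested on simulated data.

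The members, lists and tests were chosen with earlier results of these data known. Named genes were all members, the other T-box genes with a tested probe, the 3 smallest adjusted p past 0.05 in each other list, the 3 nearest in pattern to each called member without clone or provisional names, and called neighbours. Cdkn1a, Cdh1, Gja1, Pax2, Pax9, Rbm19, Tbx3os1, the other Fgf8 probes and genes too dim to be tested were added with their values seen. Not all genes of the lists are reported here. Some genes stand in several lists, so the counts of different lists are not separate observations. Among them are Cdh1 (repressed targets and otic epithelium), Neurog1 and Neurod1 (downstream of Tbx1 and otic neuroblasts) and Pou3f4 (downstream of Tbx1 and periotic mesenchyme). Alternatives were other background corrections, normalizations and filters, the deposited ratios, a fit with sex or without dye, weights per array, 1 probe per gene, separate channels, and each array left out. Plots were made in Python 3.11.15 with matplotlib 3.10.9.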

Additional observations from a re-analysis of the deposited data

Results flagged for a closer look

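Dixon's test was read over the 4 ratios of 54 probes, those of tested members, named list genes, nearest genes and called neighbours. Levels were read in this way at the 8 tested member probes only. A few groups of 4 held a sample far from the other 3, which chance alone flags in about 1 of 20 groups. The Tbx18 level of control replicate 2 was 7.97, below the other 3 control levels of 8.10 to 8.12, and all Tbx2/3cDKO levels lay above all of these. The Mga log2 ratio of replicate 1 was -0.11, below the 0.01 to 0.03 of the other 3 arrays. The log2 ratio of Slc5a7, a choline transporter gene of cholinergic neurons, was 0.38 on replicate 2, above those of the other 3 arrays.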

How the results depend on the processing

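The calls of Tbx1, Tbx3 and Tbx18 and their directions held in each of 12 other settings and with each array left out. The Tbx1 log2 ratio ran from -1.41 to -1.39 over the settings and from -1.47 to -1.31 with an array left out, that of Tbx3 from -3.60 to -3.42 and from -3.49 to -3.37, and that of Tbx18 from 0.79 to 1.05 and from 0.73 to 0.86. Tbx2 was called in none of these, with 0.05 to 0.06 and, with an array left out, -0.06 to 0.19. The 2 member probes called higher with a sex term were Tbx18 and Tbx15 (0.16; limma adjusted p = 0.0297), in a fit that called 4041 of all probes higher and 3339 lower, against 2872 and 2248 without that term. Mga partners called higher numbered 0 with the software's processed signals and 0 to 2 with an array left out. The neighbours of Tbx2 and Tbx4 called higher numbered 0 to 2, the genes downstream of Tbx1 called lower 3 to 5 and all probes called lower 1337 to 2167 with an array left out. A separate-channel fit with the array as replicate block, which an intraspot correlation of 0.515 gave, called 3880 probes higher and 3284 lower, and without the replicate block 2367 and 1795, with the same calls of members. The cause of these changes was not tested. Only 4 arrays on 1 slide were read, Tbx4, Tbx5 and Tbx20 were near background, and for Tbx2, Tbx3, Tbx1 and Tbx18 1 probe stands for the gene.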
